A study of Mus musculus with 4 samples.

Results

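The 34 genes described here carry out fatty acid oxidation and lipid storage and were chosen by name, from among 21627 protein-coding genes on chromosomes 1 to 19 and X of the mouse. They cover 8 roles: the carnitine shuttle, the acyl-CoA dehydrogenases, the later steps of the oxidation spiral, the electron transfer flavoprotein, transcriptional regulators, lipid droplet coat and triglyceride synthesis, lipolysis, and uptake and transport. Chromatin accessibility around each gene was read by ATAC-seq, in which the Tn5 transposase cuts and tags open DNA. The cells were naive CD4 T cells and DN3 thymocytes of mice deficient in Scd1, the desaturase that makes monounsaturated fatty acids from saturated ones, and of littermate controls. The 4 groups were Scd1-deficient naive CD4, control naive CD4, Scd1-deficient DN3 and control DN3, with 1 library each. The genotype is labelled as SCD1 deficient for the whole mouse, with no Cre or promoter named, and the controls are titled HZ, which the labels do not explain. All cells were untreated primary cells. Naive CD4 T cells came from the spleen through a magnetic isolation kit. DN3 cells, an early thymocyte stage that carries neither CD4 nor CD8, came from the thymus by bead depletion of lineage-positive and CD4-positive cells and a sort for CD25 without CD44. The number, age and sex of the animals behind a library are not in the labels. The study asks how loss of Scd1 affects open chromatin in each cell type.

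Fatty acids enter a cell through surface carriers and are held by binding proteins in the cytosol. They are stored as triglyceride in lipid droplets, or coupled to carnitine, carried into mitochondria and shortened step by step to acetyl-CoA, while electrons leave through the electron transfer flavoprotein. The PPAR nuclear receptors, which bind fatty acid ligands, and the PGC-1 coactivators drive transcription of many of these genes in liver, muscle and fat. Resting naive T cells are known to draw on fatty acid oxidation for energy, whereas dividing thymocytes rely more on glycolysis.

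A region means 1 peak of the authors' list for a library. It was assigned to a gene when it overlapped the gene body or the 10 kb on either side. A gene-end region lies within 1 kb of either annotated end of a gene. Fold is the authors' ratio of fragments at the region's summit to the background around it in that library, and −log10 q is their measure of how far that summit stands above background, which grows with depth. With 1 library per group there is no replicate check, no test was run, and the 95% intervals cover counting error only. A region listed in 1 library only is not read as a gain or a loss.

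The lists held 51297 regions in Scd1-deficient naive CD4, 46576 in control naive CD4, 76437 in Scd1-deficient DN3 and 76814 in control DN3 cells. The lowest background pileup, which stands in for depth because no read totals were used, was 3.65, 5.12, 4.47 and 4.72 fragments in the same order. The Scd1-deficient naive CD4 library was therefore the one with the lowest background, and its median region width was 732 bp, against 894 bp in control naive CD4 cells. Of 8 DN3 markers, 6 had a gene-end region in Scd1-deficient naive CD4 and 5 in control naive CD4 cells, against 8 in each DN3 library. Ptcra, the pre-T cell receptor chain, and Rag2, which cuts receptor genes for rearrangement, were called only in the DN3 lists. Other markers of the same list had the higher fold in naive CD4 cells. Il2ra, a chain of the interleukin-2 receptor, had 11.9 and 12.7 in Scd1-deficient and control naive CD4 cells, against 6.8 and 6.52 in Scd1-deficient and control DN3 cells. Notch1 had 9.18 and 9.06 in Scd1-deficient and control naive CD4 cells, against 5.73 and 5.98 in Scd1-deficient and control DN3 cells, and Notch3, Dtx1 and Hes1 had the same order. All 8 markers of naive CD4 T cells and all 6 of T cells in general were called in every library, so open gene ends in that list do not separate the 2 cell types. The summed fold of the naive CD4 markers was 47.3 and 47.2 in Scd1-deficient and control naive CD4 cells, against 68.5 and 69.5 in Scd1-deficient and control DN3 cells. Ms4a1 of B cells, Csf1r and Adgre1 of macrophages, and Adipoq, Lep, Cidec and Retn of adipocytes had no gene-end region in any library. Other markers of these cells did have one: of the 6 B cell markers 3 were called in each library, Ebf1 and Cd79b in all 4. Of the 6 markers of macrophages and dendritic cells 3 were called in Scd1-deficient DN3 cells and 2 in each other library. Cd68 was among them in all 4, with −log10 q of 10.1 in Scd1-deficient and 465 in control naive CD4 cells, and Itgam in both naive CD4 libraries. Lyz2 was called in both DN3 libraries alone, with folds of 9.32 in Scd1-deficient and 8.39 in control cells. Itgax was called in Scd1-deficient DN3 cells alone, with fold 4.74. The part of such cells in the results was not tested.

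Promoter sequences were matched in RefSeq (GRCm38.p6, the assembly of mm10) for 26 of the 34 genes, with 30 annotated starts. Each covers 250 bases before to 50 after the start and is written 5′ to 3′ on the strand of the gene. Capitals mark GC boxes (GGGCGG or its reverse complement CCGCCC) and, in Etfdh, the NRF1 core GCGCATGC, where 2 matches on opposite strands overlap. The first pair are promoters open in all 4 libraries. Hadhb shares its open region with Hadha, transcribed the other way. Etfdh holds the NRF1 core.
Hadhb, chr5:30155003-30155302, plus strand: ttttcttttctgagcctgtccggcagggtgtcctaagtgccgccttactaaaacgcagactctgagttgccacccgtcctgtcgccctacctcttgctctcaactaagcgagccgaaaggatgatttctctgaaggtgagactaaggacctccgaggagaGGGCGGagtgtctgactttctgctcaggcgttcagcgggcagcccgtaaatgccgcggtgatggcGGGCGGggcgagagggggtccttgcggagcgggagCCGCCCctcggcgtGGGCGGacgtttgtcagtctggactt
Etfdh, chr3:79628718-79629017, minus strand: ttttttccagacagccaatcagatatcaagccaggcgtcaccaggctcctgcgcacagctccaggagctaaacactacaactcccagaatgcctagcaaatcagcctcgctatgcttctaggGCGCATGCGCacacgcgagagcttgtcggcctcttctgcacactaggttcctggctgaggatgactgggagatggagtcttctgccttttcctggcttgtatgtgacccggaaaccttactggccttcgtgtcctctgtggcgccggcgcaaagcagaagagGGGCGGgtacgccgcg
The next pair are 2 starts of Pparg. The first lay inside a region in both DN3 libraries, and the last lay in no region of any library.
Pparg first start, chr6:115360894-115361193, plus strand: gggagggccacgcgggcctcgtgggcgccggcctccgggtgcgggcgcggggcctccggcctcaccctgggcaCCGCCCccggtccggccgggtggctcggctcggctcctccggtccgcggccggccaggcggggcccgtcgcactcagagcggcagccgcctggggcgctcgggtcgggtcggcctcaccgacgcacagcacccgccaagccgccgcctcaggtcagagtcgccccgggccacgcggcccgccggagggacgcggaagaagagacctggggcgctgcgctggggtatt
Pparg last start, chr6:115421816-115422115, plus strand: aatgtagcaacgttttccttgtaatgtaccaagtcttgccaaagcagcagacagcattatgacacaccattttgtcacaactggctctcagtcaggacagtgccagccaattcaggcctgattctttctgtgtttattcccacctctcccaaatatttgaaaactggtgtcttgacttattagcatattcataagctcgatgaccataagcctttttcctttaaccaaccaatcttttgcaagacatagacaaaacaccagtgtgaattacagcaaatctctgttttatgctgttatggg
The last pair lay in no region of any library. Both starts lie inside the annotated gene, away from its ends. For Cd36 nothing at either end of the gene was called, while for Ppargc1a the gene-end region lies at another, far upstream end.
Cd36, chr5:17835847-17836146, minus strand: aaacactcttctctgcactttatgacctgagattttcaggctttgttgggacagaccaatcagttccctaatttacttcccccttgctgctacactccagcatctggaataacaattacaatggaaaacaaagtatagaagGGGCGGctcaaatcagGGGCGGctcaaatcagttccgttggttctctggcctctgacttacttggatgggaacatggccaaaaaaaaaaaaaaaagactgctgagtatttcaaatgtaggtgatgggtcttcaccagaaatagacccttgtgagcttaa
Ppargc1a, chr5:51567676-51567975, minus strand: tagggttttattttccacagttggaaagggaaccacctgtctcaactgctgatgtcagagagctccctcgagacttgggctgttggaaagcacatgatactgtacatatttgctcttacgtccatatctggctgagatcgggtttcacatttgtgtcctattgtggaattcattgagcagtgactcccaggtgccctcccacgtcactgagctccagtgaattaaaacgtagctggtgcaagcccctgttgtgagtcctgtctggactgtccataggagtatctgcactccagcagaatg

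The 2 open promoters above hold 24 CpG pairs in Hadhb and 17 in Etfdh. The first Pparg start holds 44, the last 2, Cd36 3 and Ppargc1a 5. Over all 30 starts the same contrast held: the 23 starts inside a region of all 4 libraries had a median G and C content of 61.3% and a median ratio of observed to expected CpG of 0.691. The 5 starts in no region, those of Cd36 and Cpt1c, 1 of Lipe, the last of Pparg and that of Ppargc1a, had medians of 47.3% and 0.216. The remaining 2 were the first and second starts of Pparg, whose windows overlapped a region in DN3 cells only. For the second start the overlap was partial and did not reach the start itself. Across the 21044 promoters of the table the corresponding medians were 62% and 0.792 for those covered in all 4 libraries and 47.3% and 0.195 for those covered in none. A GC box was present in 24 of the 30 starts (80%), against 46.7% of all promoters and 69.1% of all promoters covered in every library. The NRF1 core stood in 4 starts (13.3%), those of Acadm, Etfa, Etfdh and Ppara, against 3.54% of all and 5.8% of those covered in every library. ETS letters (CCGGAAG) were in 3 starts (10%, against 11.7% of all and 19.8% of those covered in every library). An E-box (CACGTG) was in 3 (10%, against 7.91% and 10.7%) and a TATA box (TATAAA) in 1 (3.33%, against 12.7% and 5.77%). None held the DR1 repeat read by PPAR with RXR (0.0475% of all promoters), the ERR element TCAAGGTCA (0.337%) or the CREB site TGACGTCA (2.26%). Matches were searched on both strands and are descriptions of these letters within these windows.

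**Figure D1:**
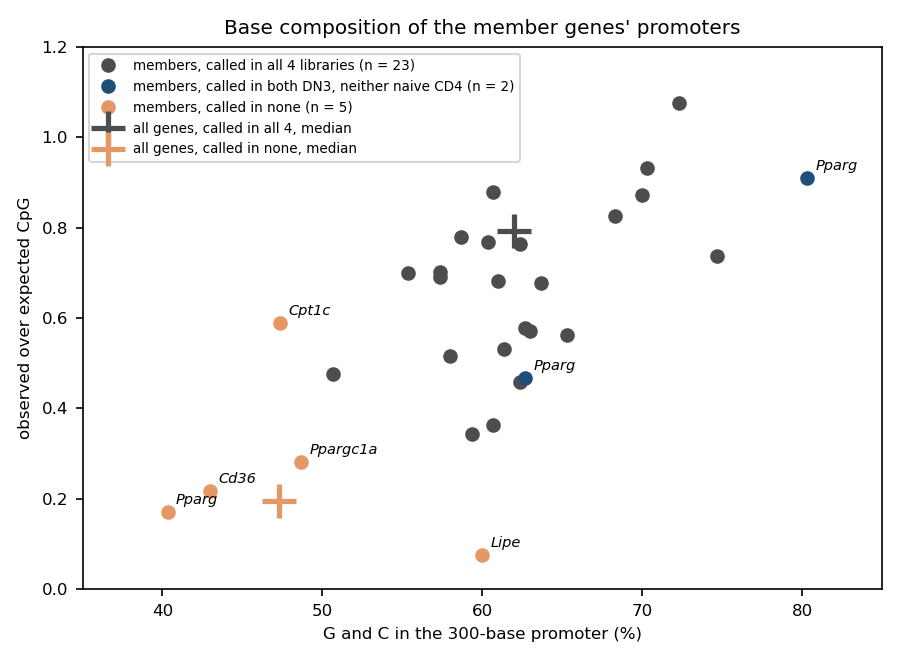
Observed over expected CpG (y axis) against the percentage of G and C (x axis) in the 300-base promoters of the member genes, with points coloured by the libraries whose regions cover them and crosses for the medians of all genes. The 23 promoters covered in all 4 libraries lie at higher G and C than 4 of the 5 covered in none, and the exception, a start of Lipe at 60%, has a CpG ratio of only 0.0748.

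Across the gene set, gene ends were open in nearly every member, in both genotypes and both cell types. A gene-end region was called for 31 of 34 members in Scd1-deficient naive CD4, 30 in control naive CD4, 32 in Scd1-deficient DN3 and 32 in control DN3 cells. In all 4 libraries it was called for 29 members (85.3%, Wilson 95% interval 69.9 to 93.6), whereas among all protein-coding genes the share was 56.1%. Only Cd36, the surface fatty acid carrier, had none, against 31.8% of all genes. The other 4 members without a call in every library were Cpt1b, Cpt1c, Pparg and Lpl. Over the 29 genes called throughout, the median gene-end fold was 12.4 in Scd1-deficient naive CD4, 11.5 in control naive CD4, 12.3 in Scd1-deficient DN3 and 11.5 in control DN3 cells. All genes called in every library had medians of 11.9, 11.1, 11.1 and 10.8 in the same order, so the members' ends were about as accessible as those of other open genes.

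**Figure D2:**
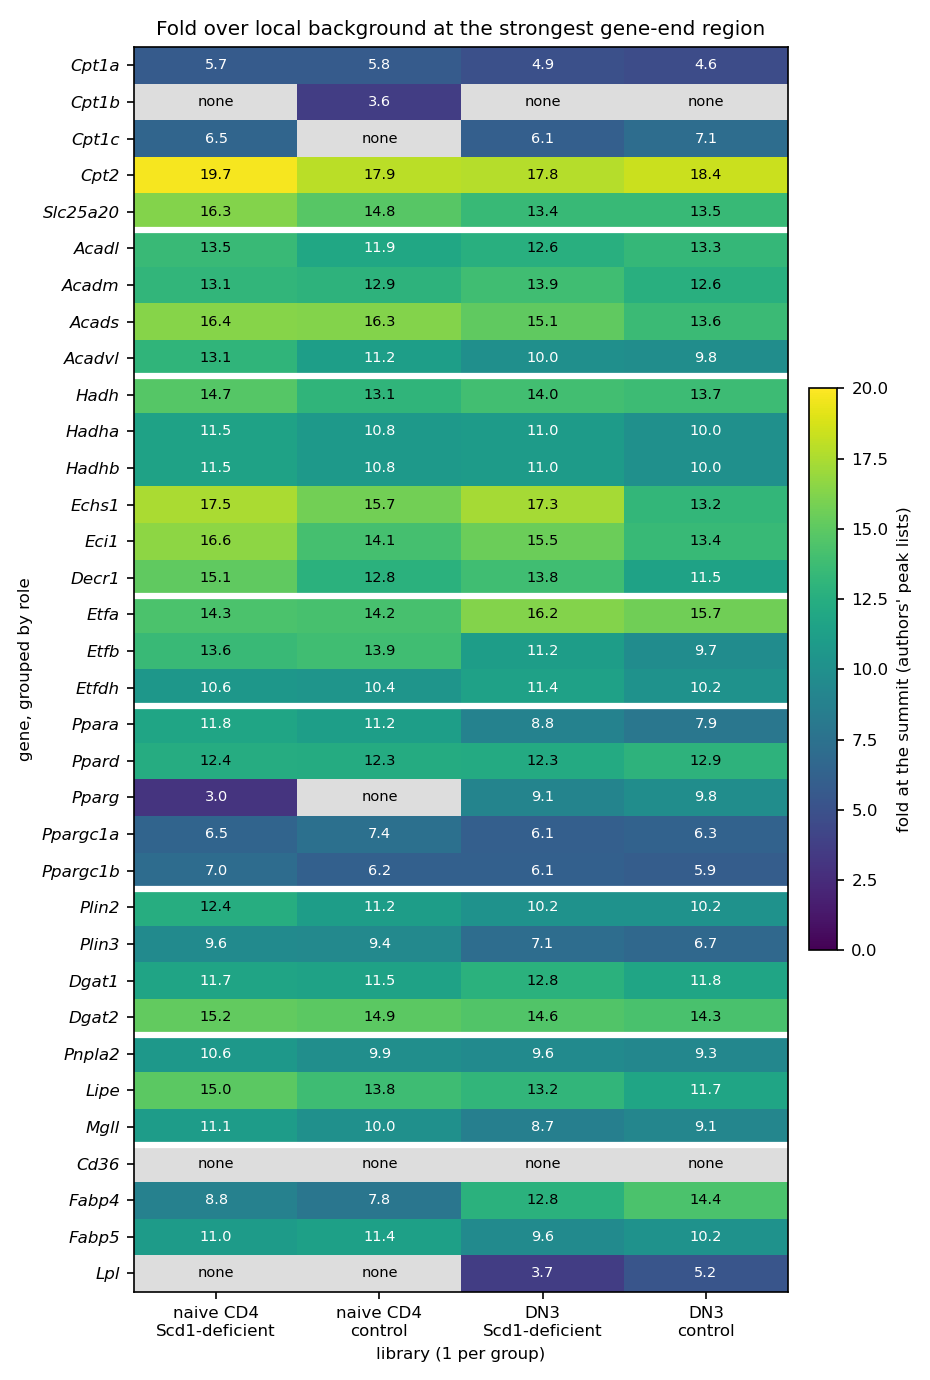
Fold over local background at the strongest gene-end region of each of the 34 genes (rows, grouped by role) in each library (columns), with grey cells where no region was called. Cpt2 has the highest values, 17.8 to 19.7, Cd36 has none, and for Mgll the strongest region is at the 5′ end in naive CD4 and at the 3′ end in DN3 cells.

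The carnitine shuttle held both the gene end with the highest fold of the set and some of its weakest. Cpt2, the inner-membrane transferase that regenerates acyl-CoA in the matrix, had folds of 19.7 in Scd1-deficient and 17.9 in control naive CD4 cells, and of 17.8 in Scd1-deficient and 18.4 in control DN3 cells. Slc25a20, the translocase that exchanges acylcarnitine for carnitine, had 16.3 and 14.8 in Scd1-deficient and control naive CD4 cells and 13.4 and 13.5 in Scd1-deficient and control DN3 cells. In fold, both were thus open to a similar degree throughout. Fragments over the lowest background of a library differed more between the cell types. Their log2 ratio of naive CD4 over DN3 at Cpt2 was 0.73 in Scd1-deficient and 0.44 in control cells. At Slc25a20 it was 0.52 and 0.25, where the all-gene medians were 0.57 and 0.50. Fold is relative to local background, and Dgat1 had more fragments than Cpt2 in every library: 735 and 1011 in Scd1-deficient and control naive CD4 cells and 580 and 563 in Scd1-deficient and control DN3 cells, where Cpt2 had 488, 553, 360 and 377 in the same order.

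Cpt1a, the outer-membrane transferase that sets the rate of mitochondrial import, had a broad 5′ region (chromosome 19, 3322040 to 3324315) of only modest fold. It measured 5.73 in Scd1-deficient and 5.78 in control naive CD4 cells, against 4.91 in Scd1-deficient and 4.62 in control DN3 cells. The low fold did not come with few fragments: the summit held 309 and 440 fragments in Scd1-deficient and control naive CD4 cells and 308 and 285 in Scd1-deficient and control DN3 cells, above a high local background. The gene body of Cpt1a differed more between the cell types than its end. Of its 11 regions, 4 were called in both DN3 libraries and neither naive library. The strongest of them, at 3359596 to 3360321 in the gene body, had folds of 10.5 in Scd1-deficient and 10.6 in control DN3 cells. A wider body region at 3339778 to 3341671 had a −log10 q of 80 in Scd1-deficient and 75.7 in control DN3 cells. In naive CD4 cells that place held only a region with a −log10 q of 3.25, in the Scd1-deficient library. One body region (3355056 to 3355350) was called in both naive libraries alone, with −log10 q of 3.25 in Scd1-deficient and 2.74 in control cells.

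Cpt1b and Cpt1c, the forms best known from muscle and from brain, had weak or partial calls. Cpt1b had a gene-end region (chromosome 15, 89416849 to 89417273) in control naive CD4 cells alone, with fold 3.6, 21 fragments at the summit and a −log10 q of 5.65. Within 10 kb of Cpt1b all 4 libraries had a region with folds of 11.6 to 12.3, at 89429020 to 89430586, which lies at the end of the neighbouring gene Chkb. Cpt1c had a region at its 3′ end (chromosome 7, 44958167 to 44958660) with fold 6.51 in Scd1-deficient naive CD4 cells and none in control naive CD4 cells, and with 6.07 in Scd1-deficient and 7.14 in control DN3 cells. The same region lies within 1 kb of an end of Tsks, so it cannot be assigned to Cpt1c alone. The annotated start of Cpt1c lay in no region, while a body region at 44969979 to 44971063 was called in all 4, with folds of 12.4 and 12.8 in Scd1-deficient and control naive CD4 cells and 10.4 and 10.2 in Scd1-deficient and control DN3 cells.

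The 4 acyl-CoA dehydrogenases, which open each round of oxidation on chains of different length, all had a gene-end region in every library. Acads, for short chains, had folds of 16.4 and 16.3 in Scd1-deficient and control naive CD4 cells and 15.1 and 13.6 in Scd1-deficient and control DN3 cells. Acadvl, for very long chains, had 13.1 and 11.2 in Scd1-deficient and control naive CD4 cells and 9.97 and 9.79 in Scd1-deficient and control DN3 cells. Acadm, for medium chains, lay at 12.6 to 13.9 across the 4 libraries and Acadl, for long chains, at 11.9 to 13.5. Acadm had a further region at its 3′ end in both naive libraries and neither DN3 library (chromosome 3, 153921561 to 153921892), with folds of 5.59 in Scd1-deficient and 6.05 in control cells.

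The later enzymes of the spiral were open without exception. The bidirectional promoter of Hadha and Hadhb, the subunits of the trifunctional protein, had folds of 11.5 and 10.8 in Scd1-deficient and control naive CD4 cells and 11 and 10 in Scd1-deficient and control DN3 cells. Hadh, the short-chain hydroxyacyl-CoA dehydrogenase, lay at 13.1 to 14.7. Echs1, the short-chain enoyl-CoA hydratase, had 17.5 and 15.7 in Scd1-deficient and control naive CD4 cells, and 17.3 in Scd1-deficient against 13.2 in control DN3 cells. Its DN3 summit held 301 fragments in the Scd1-deficient and 244 in the control library.

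Eci1 and Decr1, an isomerase and a reductase needed for unsaturated chains, had slightly higher folds in both Scd1-deficient libraries. Eci1 had 16.6 in Scd1-deficient and 14.1 in control naive CD4 cells, and 15.5 in Scd1-deficient and 13.4 in control DN3 cells. Decr1 had 15.1 and 12.8 in Scd1-deficient and control naive CD4 cells, and 13.8 and 11.5 in Scd1-deficient and control DN3 cells. The counting intervals of these ratios overlapped the median of all genes in both cell types, as given below. Higher folds in the Scd1-deficient library were common: 25 of 29 members in naive CD4 and 20 of 32 in DN3 cells. Among all genes it was 10086 of 12084 and 8233 of 13954. In naive CD4 cells −log10 q was lower in the Scd1-deficient library, with 274.7 against 284.5 for Eci1 and 105.2 against 117.8 for Decr1. In DN3 cells it was higher there for both. Decr1 also carried the strongest region of the set that naive CD4 cells had and DN3 cells lacked, in the gene body (chromosome 4, 15928825 to 15929947). It had a −log10 q of 59.4 with 83 fragments in Scd1-deficient and 55.6 with 89 fragments in control naive CD4 cells.

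The electron transfer flavoprotein and its dehydrogenase, which pass electrons to the respiratory chain, were also open throughout. Etfa, with an NRF1 core in its promoter, had folds of 14.4 and 14.2 in Scd1-deficient and control naive CD4 cells and 16.2 and 15.7 in Scd1-deficient and control DN3 cells. Etfb had 13.6 and 13.9 in Scd1-deficient and control naive CD4 cells and 11.2 and 9.69 in Scd1-deficient and control DN3 cells. Naive CD4 cells were thus lower than DN3 cells in fold at Etfa and higher at Etfb, although the counting interval at Etfa includes 0 in both genotypes. With fragments set over the lowest background of a library, the log2 ratio of naive CD4 over DN3 cells at Etfa was 0.26 in Scd1-deficient and 0.39 in control cells, below the all-gene medians of 0.57 and 0.50 on that scale. The Etfb region also touches an end of Cldnd2. Etfdh lay at 10.2 to 11.4.

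Among the transcriptional regulators, Pparg differed most between the cell types. Pparg is the receptor best known for driving fat cell formation. Its 5′ region (chromosome 6, 115360839 to 115362315) overlapped the first 2 promoters in DN3 cells. Its fold was 3.01 in Scd1-deficient naive CD4 cells, with 13 fragments and a −log10 q of 2.65, and no region was called in control naive CD4 cells. In DN3 cells the fold was 9.06 in the Scd1-deficient library, with 129 fragments, and 9.82 in the control library, with 154. Inside the gene a further 8 regions were called, and none of them in a naive library. Of these, 7 were in both DN3 libraries, between 71.7 and 126.5 kb from the 5′ end, with folds of 4.58 to 9.5 in Scd1-deficient and 3.97 to 10.1 in control DN3 cells. The strongest of them, at 115464661 to 115465108, had a −log10 q of 33.7 in Scd1-deficient and 39 in control DN3 cells. In these bulk libraries, fewer cells with an open site and less access per cell cannot be told apart.

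**Figure D3:**
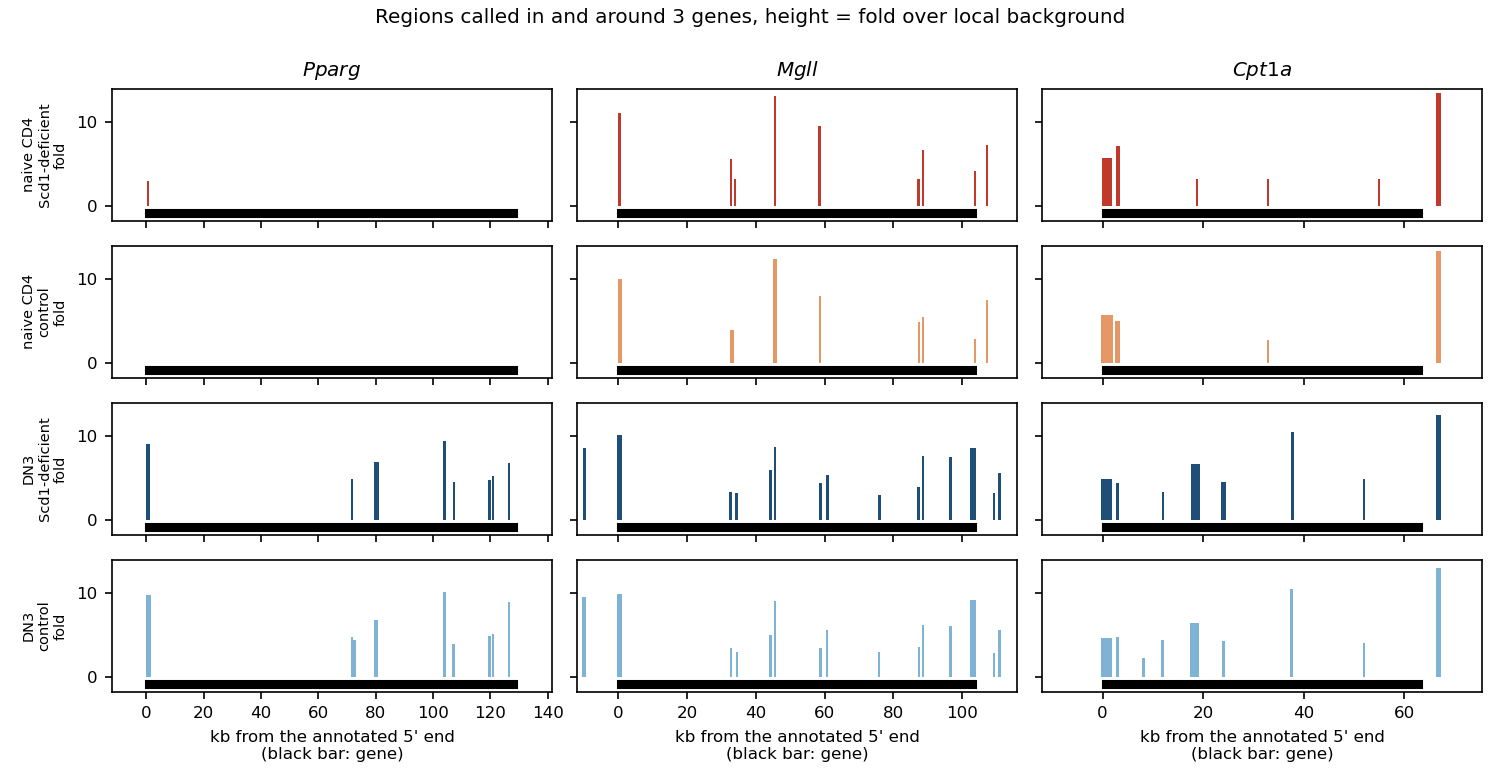
Regions called around Pparg, Mgll and Cpt1a in the 4 libraries (rows), drawn at their distance in kb from the annotated 5′ end, with the height giving the fold over local background and the black bar the gene. Both DN3 libraries show the same 7 regions inside Pparg where the naive CD4 libraries have none, while Mgll and Cpt1a have regions shared by all 4 libraries beside others called in DN3 cells alone.

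Ppara and Ppard, the receptors tied to oxidation in liver and in muscle, were open in all 4 libraries. Ppara had folds of 11.8 and 11.2 in Scd1-deficient and control naive CD4 cells and 8.84 and 7.9 in Scd1-deficient and control DN3 cells. Its summit held 167 and 152 fragments in Scd1-deficient and control naive CD4 cells, fewer than the 187 and 175 in Scd1-deficient and control DN3 cells. The local background was 13.2 and 12.6 fragments in the naive CD4 and 20.3 and 21.3 in the DN3 libraries of the same genotypes. Ppard lay at 12.3 to 12.9 in every library. It had 16 regions. Every library had 10 of them, and 3 were called in DN3 cells of both genotypes alone, with −log10 q of at most 11. Its 5′ region (chromosome 17, 28232183 to 28233687) had a −log10 q of 321 and 452 in Scd1-deficient and control naive CD4 cells and 266 and 294 in Scd1-deficient and control DN3 cells.

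The coactivators Ppargc1a and Ppargc1b had lower folds. Ppargc1a, the coactivator of mitochondrial biogenesis, had a region over its far annotated 5′ end (chromosome 5, 52114704 to 52116587) with folds of 6.47 and 7.36 in Scd1-deficient and control naive CD4 cells and 6.08 and 6.32 in Scd1-deficient and control DN3 cells. In fragments per lowest background of the library the order was the other way, with 35.3 and 28.5 in Scd1-deficient and control naive CD4 cells and 49.8 and 57.2 in Scd1-deficient and control DN3 cells. A body region present only in DN3 cells (51853411 to 51854363) had folds of 12.8 in Scd1-deficient and 11.4 in control cells, higher than the gene end itself. Ppargc1b had 7.04 and 6.16 in Scd1-deficient and control naive CD4 cells and 6.12 and 5.87 in Scd1-deficient and control DN3 cells at its end. Inside it, 2 regions were called in both naive libraries and no DN3 library. The wider of them (chromosome 18, 61376751 to 61378673) had folds of 11.1 in Scd1-deficient and 9.13 in control naive CD4 cells, and the other (61367676 to 61368331) had 9.67 and 7.19.

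Genes of the lipid droplet and of triglyceride synthesis had open ends in each library. Dgat1 and Dgat2, which add the last acyl chain to diacylglycerol, had gene-end folds of 11.5 to 12.8 and of 14.3 to 15.2 across the 4 libraries. Around Dgat2 the body differed between cell types: a region at 99173375 to 99174276 on chromosome 7 was called in both DN3 libraries alone, with folds of 13.2 in Scd1-deficient and 12.8 in control cells and −log10 q of 90.1 and 91.9. Dgat1 had 2 body regions called in both DN3 libraries alone, the stronger (chromosome 15, 76503841 to 76504604) with folds of 7.19 in Scd1-deficient and 7.7 in control cells. Plin2, a droplet coat protein of most cells, had folds of 12.4 and 11.2 in Scd1-deficient and control naive CD4 cells and 10.2 in each DN3 library. Plin3, a coat protein that also occurs in the cytosol, had 9.58 and 9.45 in Scd1-deficient and control naive CD4 cells and 7.14 and 6.74 in Scd1-deficient and control DN3 cells.

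The 3 lipases that strip triglyceride in sequence were open in all 4 libraries. Pnpla2, which takes off the first acyl chain, had folds of 10.6 and 9.85 in Scd1-deficient and control naive CD4 cells and 9.59 and 9.27 in Scd1-deficient and control DN3 cells. Lipe, which acts on diacylglycerol, had 15 and 13.8 in Scd1-deficient and control naive CD4 cells and 13.2 and 11.7 in Scd1-deficient and control DN3 cells at its 3′ end. The start of Lipe inside the annotated gene lay in a separate region of all 4 libraries, with −log10 q of 511 and 682 in Scd1-deficient and control naive CD4 cells and 321 and 371 in Scd1-deficient and control DN3 cells.

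Mgll, the monoglyceride lipase, had the most regions of the set, 17. Its 5′ end (chromosome 6, 88724012 to 88725334) had folds of 11.1 and 10 in Scd1-deficient and control naive CD4 cells and 10.1 and 9.98 in Scd1-deficient and control DN3 cells. Its 3′ end (88826670 to 88828403) had 4.19 and 2.87 in Scd1-deficient and control naive CD4 cells and 8.65 and 9.15 in Scd1-deficient and control DN3 cells. The summit there held 27 and 20 fragments in Scd1-deficient and control naive CD4 cells, against 257 and 305 in Scd1-deficient and control DN3 cells. Of the 17 regions, every library had 7, while 8 were called in DN3 cells of both genotypes alone. A further 1 was called in both naive libraries alone, just past the 3′ end (88831251 to 88831920), with folds of 7.33 in Scd1-deficient and 7.54 in control cells.

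The uptake and transport genes were the least uniform role. Cd36 had only a body region in Scd1-deficient DN3 cells, with fold 3.65 and −log10 q of 5.35. Lpl, the secreted lipase that frees fatty acids from lipoproteins, was called at its end in both DN3 libraries and neither naive library (chromosome 8, 68881130 to 68881986), with fold 3.65 and 19 fragments in Scd1-deficient and 5.24 and 29 fragments in control DN3 cells. Fabp5, a widely expressed fatty acid binding protein, had folds of 11 and 11.4 in Scd1-deficient and control naive CD4 cells and 9.57 and 10.2 in Scd1-deficient and control DN3 cells. Fabp4, its counterpart of fat cells, macrophages and endothelium, had 8.81 and 7.85 in Scd1-deficient and control naive CD4 cells and 12.8 and 14.4 in Scd1-deficient and control DN3 cells. Its summit (chromosome 3, 10204793 to 10206157) held 40 and 47 fragments in Scd1-deficient and control naive CD4 cells and 249 and 279 in Scd1-deficient and control DN3 cells. This region lies at the lower-coordinate end of Fabp4, and none was called at the other end. The strand of Fabp4 is not given, so whether this is its start is not known here. A second region next to Fabp4 (10212689 to 10213869) was called in both DN3 libraries alone, with folds of 11.4 in Scd1-deficient and 14.8 in control cells.

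Markers of other cells stand beside Pparg, Fabp4 and Lpl as follows. Of 5 adipocyte markers only Plin1 had a gene-end region, and it had one in all 4 libraries, with the list's summed fold at 15.9 and 12.2 in Scd1-deficient and control naive CD4 cells and 13.3 and 14.2 in Scd1-deficient and control DN3 cells. Of 6 macrophage and dendritic cell markers 2 were called in each naive library, 3 in Scd1-deficient DN3 and 2 in control DN3 cells, with summed folds of 9.5, 17.6, 16.3 and 10.8 in the order Scd1-deficient naive CD4, control naive CD4, Scd1-deficient DN3 and control DN3. Of 4 endothelial markers 1 was called in each naive library, 2 in Scd1-deficient DN3 and 1 in control DN3 cells, with summed folds of 3.01, 3.43, 14.1 and 10.6 in that order, and Pecam1 and Tek were in no list. Kdr was in all 4 lists, with −log10 q of 2.65 and 5.02 in Scd1-deficient and control naive CD4 cells. In Scd1-deficient and control DN3 cells it had 83.3 and 82. Cdh5 was called in Scd1-deficient DN3 cells alone. Thymic epithelial markers were called for 1 of 4 in each naive library, 3 in Scd1-deficient DN3 and 4 in control DN3 cells, with summed folds of 12.1, 9.99, 18.5 and 21.9. The part of such cells in the DN3 signal at these genes was not tested.

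Between the genotypes, no fold differed by 1.5 times in either cell type among members with the same gene-end region in both lists. Echs1 in DN3 cells was the member farthest above the median of all genes. Cpt1b, Cpt1c and Pparg, each called in a single naive CD4 library, had no ratio there. In naive CD4 cells 29 members had the same gene-end region in both lists. Their median log2 ratio, Scd1-deficient over control, was 0.10, and that of all 12084 genes with such a region was 0.11. Members lay above 0 in 25 cases but above the median of all genes in 14. After division by the all-gene median, 0 of the 29 differed by 1.5 times in either direction, against 1.46% of all genes. The counting interval left out the all-gene median for 0 of the 29, against 8.7% of all genes. The highest log2 ratios were 0.25 for Decr1 (95% counting interval −0.10 to 0.59), 0.23 for Eci1 (0.01 to 0.45) and 0.22 for Acadvl. The lowest were −0.19 for Ppargc1a (−0.54 to 0.16), −0.05 for Fabp5 and −0.04 for Etfb. For Ppargc1a the direction depends on the measure, since its fragments over the lowest background of the library gave 0.31.

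In DN3 cells 32 members could be compared, with a median log2 ratio of 0.05, against 0.02 over 13954 genes. After division by the all-gene median, 0 of 32 differed by 1.5 times, against 0.738% of all genes. The counting interval left out the all-gene median for 1 of 32, Echs1, against 1.84% of all genes. The Echs1 region also lies within 1 kb of an end of Paox, and the Eci1 region within 1 kb of an end of Rnps1. Neither can be assigned to the member alone. Echs1 had a log2 ratio of 0.39 (0.14 to 0.64), followed by Decr1 with 0.26 (−0.14 to 0.67) and Eci1 with 0.21 (−0.05 to 0.47). These enzymes were also above the all-gene median in naive CD4 cells, where Echs1 had 0.15 (−0.07 to 0.37). The lowest DN3 ratios were −0.52 for Lpl (−1.46 to 0.34), −0.23 for Cpt1c (−0.74 to 0.25) and −0.17 for Fabp4 (−0.42 to 0.08). An interval that includes the all-gene median does not show that the genotypes were alike, and at a summit as thin as that of Lpl it is wide.

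**Figure D4:**
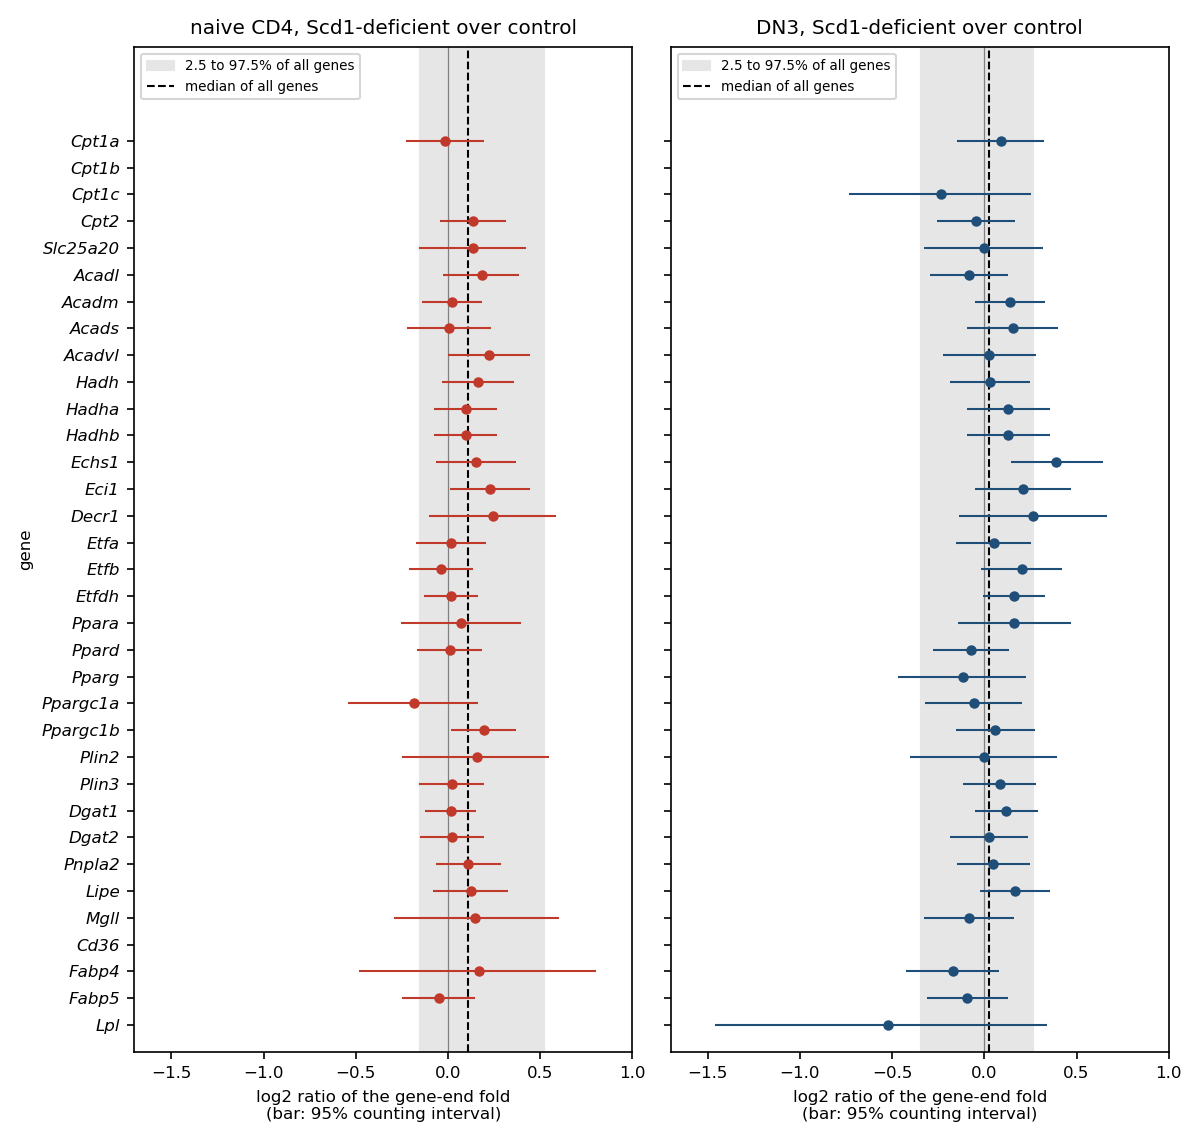
Log2 ratio of the gene-end fold, Scd1-deficient over control, for each member in naive CD4 (left) and DN3 cells (right), with 95% counting intervals as bars, the median of all genes as a dashed line and the central 95% of all genes as a grey band. The ratios crowd around the all-gene medians of 0.11 and 0.02, and only the interval of Echs1 in DN3 cells leaves out its median.

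Gene-end calls differed between the genotypes for 3 members. In naive CD4 cells 2 members, Cpt1c and Pparg, were called in the Scd1-deficient library alone, with −log10 q of 18.1 and 2.65, against 1.93% of all genes. The reverse, control alone, held for 1 member, Cpt1b, against 0.37% of all genes. In DN3 cells 0 members were called in the Scd1-deficient library alone (0.911% of all genes) and 0 in the control alone (1.11%). Over all regions of the members, 12 of 109 (11%, Wilson interval 6.41 to 18.3) in Scd1-deficient naive CD4 cells had no counterpart in control naive CD4 cells, against 11.9% of regions around all genes. Of the control naive CD4 regions 2 of 95 (2.11%, 0.579 to 7.35) had none in Scd1-deficient naive CD4 cells, against 5.63%. With both lists reduced to the same number of strongest peaks the order turned, with 5.26% in Scd1-deficient and 7.37% in control naive CD4 cells. In Scd1-deficient DN3 cells it was 10 of 154 (6.49%, 3.57 to 11.5), against 9.01%, and in control DN3 cells 9 of 155 (5.81%, 3.08 to 10.7), against 9.84%. All 4 intervals include the share around all genes.

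In Scd1-deficient naive CD4 cells the 12 regions without a control counterpart had a median −log10 q of 4.09 and a median width of 318 bp, against 70.9 and 928 bp for the regions that control naive CD4 cells shared. Of the 12, 5 had a −log10 q above 10: the one beside Fabp5 (31), 2 at Cpt1c (25.8 and 18.1), and 1 each at Hadha (21.7) and Pnpla2 (10.4). In Scd1-deficient DN3 cells the 10 had a median −log10 q of 2.92, and in control DN3 cells the 9 had 5.37. The strongest of all lay beside Fabp5 (chromosome 3, 10009367 to 10009664) in Scd1-deficient naive CD4 cells, with fold 3.71, 121 fragments and −log10 q of 31, and no other library had a region there. The strongest in control naive CD4 cells lay beside Acadm (153920060 to 153920665), with −log10 q of 6.29. In Scd1-deficient DN3 cells it lay inside Dgat2 (99158948 to 99159226), with 5.56, and in control DN3 cells beside Dgat1 (76494320 to 76494774), with 12.5.

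The regions of the members merged into 174 gene-region pairs over the 4 libraries, with 172 distinct regions since Hadha and Hadhb share 2. Of 39 at a gene end, 32 (82.1%) were called in all 4 libraries and 1 in both DN3 libraries alone. Of 79 in the rest of the gene body, 23 (29.1%) were called in all 4 and 33 (41.8%) in both DN3 libraries alone. Of 56 in the flanks, 32 (57.1%) were called in all 4 and 13 (23.2%) in both DN3 libraries alone. Both naive libraries alone had 6 in all, at Cpt1a, Acadm, Decr1 and Mgll and 2 inside Ppargc1b. A few genes held many of the 47 regions called in both DN3 libraries alone: 8 at Mgll, 7 at Pparg, 5 at Ppargc1a, 4 at Cpt1a and 3 at Ppard. These are long genes, of 103.9, 129.5, 661.6, 63.4 and 68.7 kb in that order, and counts were not scaled by length. Cd36 and Ppargc1b, of 107.3 and 109.3 kb, had 0 each. No share over all genes stands beside these patterns, so they are not read as a trait of the set. Shares between pairs of lists, with those around all genes, follow below.

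**Figure D5:**
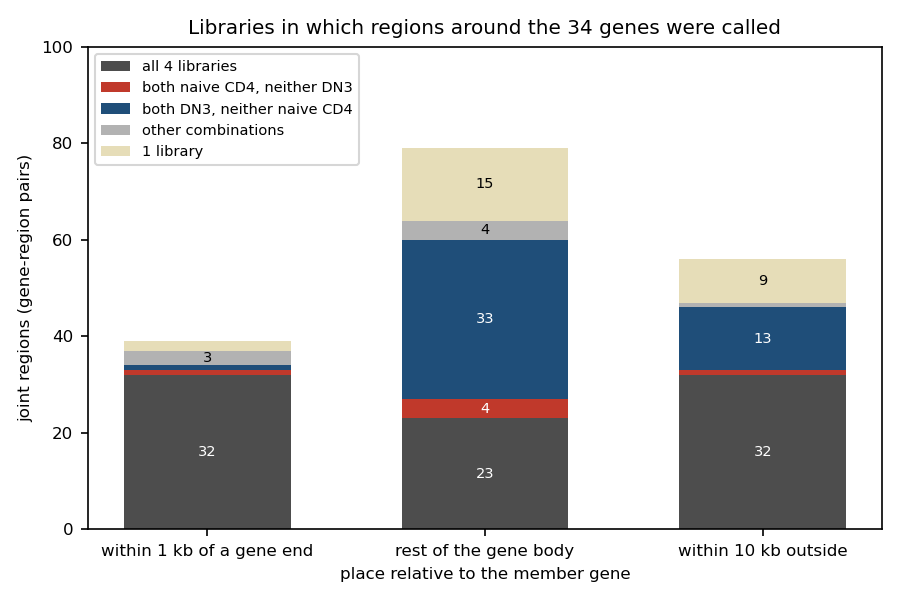
Number of joint regions (y axis) at gene ends, in the rest of the gene body and in the 10 kb flanks of the 34 genes, divided by the libraries in which they were called. Gene ends are mostly called in all 4 libraries (32 of 39), while the largest class in gene bodies is the 33 of 79 called in both DN3 and neither naive CD4 library. No share over all genes is shown.

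The DN3 lists were longer than the naive CD4 lists for the whole genome, and the members followed that. In Scd1-deficient cells, 13 of 109 naive CD4 regions of members (11.9%, 7.1 to 19.3) had no DN3 counterpart, against 14.8% around all genes. Of the Scd1-deficient DN3 regions 58 of 154 (37.7%, 30.4 to 45.5) had no naive CD4 counterpart, against 40.6%. In control cells it was 8 of 95 naive CD4 regions (8.42%, 4.33 to 15.7), against 13.8%, and 64 of 155 DN3 regions (41.3%, 33.8 to 49.2), against 44.4%. By place, 58.8% (47 to 69.7) of the members' body regions in Scd1-deficient DN3 and 64.7% (52.8 to 75) in control DN3 cells had no naive CD4 counterpart, against 48.9% and 52.7% around all genes. At gene ends the shares were 2.7% (0.479 to 13.8) in Scd1-deficient and 15% (7.06 to 29.1) in control DN3 cells, against 17.6% and 20.8%. Regions around all genes thus show the same order, with the larger shares inside genes. The intervals leave out the share around all genes at gene ends in Scd1-deficient DN3 cells and, narrowly, in bodies in control DN3 cells. They include it at gene ends in control and in bodies in Scd1-deficient DN3 cells. When each pair of lists was reduced to the same number of strongest peaks, 21.1% of Scd1-deficient naive CD4 regions and 21.1% of Scd1-deficient DN3 regions of members lacked a counterpart. In control cells the shares were then 17.9% in naive CD4 and 22% in DN3 cells. Lists of the same length bring the shares of both directions close by construction.

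Gene-end calls in both naive libraries and neither DN3 library were found for 0 members (0.347% of all genes), and in both DN3 and neither naive library for 1 member, Lpl (7.56% of all genes). Pparg joined Lpl when regions with a −log10 q under 5 were left out. With the lists cut to the same number of strongest peaks, Pparg took the place of Lpl. Where the strongest gene-end region was the same in both cell types, the median fold was close between them. In Scd1-deficient cells the median log2 ratio of naive CD4 over DN3 was 0.10 over 30 members, against 0.09 over all genes, and in control cells 0.10 over 28 members, against 0.02. In Scd1-deficient cells 0 members were 1.5 times or more higher in naive CD4 after scaling (3.14% of all genes) and 2 were lower, Pparg and Fabp4 (4.44%). In control cells 0 were higher (2.8%) and 1 was lower, Fabp4 (4.5%), since Pparg had no region to compare. Mgll is in neither count, because its strongest end was the 5′ end in naive CD4 and the 3′ end in DN3 cells. At that 3′ end the fold was 4.19 in naive CD4 against 8.65 in DN3 cells of the Scd1-deficient genotype. In controls it was 2.87 against 9.15. The counting interval left out the all-gene median for 8 of 30 members in Scd1-deficient cells (29.7% of all genes) and for 7 of 28 in control cells (30.8%).

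Pparg had a log2 ratio of naive CD4 over DN3 of −1.59 (−2.63 to −0.86) in Scd1-deficient cells. Fabp4 had −0.53 (−1.08 to −0.08) in Scd1-deficient and −0.87 (−1.37 to −0.45) in control cells. Both were farther apart when fragments were set over the lowest background of each library, with −3.02 for Pparg, and −2.35 and −2.69 for Fabp4 in Scd1-deficient and control cells. Etfa had −0.18 in Scd1-deficient and −0.15 in control cells, and Acadl −0.16 in control cells. At the other end lay Plin3 with 0.42 (0.23 to 0.62) in Scd1-deficient and 0.49 (0.31 to 0.67) in control cells, Ppara with 0.41 (0.10 to 0.72) and 0.51 (0.18 to 0.83), Etfb with 0.28 (0.08 to 0.48) and 0.52 (0.33 to 0.72), and Acadvl with 0.39 in Scd1-deficient cells. The direction for some of these rests on the local background. Over the lowest background of each library the medians of all genes were 0.57 in Scd1-deficient and 0.50 in control cells. Etfb, at 0.63 and 0.88, lay above those medians, Plin3, at 0.36 and 0.49, lay below them, and Ppara had 0.13 in Scd1-deficient and −0.32 in control cells.

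A list of 66 further genes of these pathways gave a similar picture in gene-end calls. Gene-end regions were called in all 4 libraries for 51 (77.3%, 65.8 to 85.7), against 56.1% of all genes. In no library were they called for 7 (10.6%, against 31.8% of all genes), namely Acacb, Acox2, Cidec, Fabp1, Gpam, Gpihbp1 and Plin4. Both DN3 libraries and neither naive library had a call for 4, Acaa1b, Cidea, Lpin1 and Lpin3 (6.06%, against 7.56% of all genes). The strongest was Lpin1, a phosphatidate phosphatase of triglyceride synthesis, with folds of 17.8 in Scd1-deficient and 20 in control DN3 cells. In one genotype alone, Cideb and Prkaa2 were called in Scd1-deficient naive CD4, Fitm1 in Scd1-deficient DN3, and Cideb and Pdk4 in control DN3 cells. These were 3.03%, 1.52% and 3.03% of the list, against 1.93%, 0.911% and 1.11% of all genes. Prkaa2, a catalytic subunit of the energy sensor AMPK, had a −log10 q of 10.6 in Scd1-deficient naive CD4 cells, none in control naive CD4 cells, and 75.2 and 91.3 in Scd1-deficient and control DN3 cells. For Fitm1 the region lies at the edge of the 1 kb limit, and all 4 libraries had a region just beyond or at it. The fold ratios of the list followed those of the members only in part. In naive CD4 cells the median log2 ratio of Scd1-deficient over control was 0.14. There 35 of 50 lay above the all-gene median, against 14 of 29 members. In DN3 cells the median was 0.03, with 29 of 56 above, against 20 of 32. For naive CD4 over DN3 it was 0.13 in Scd1-deficient cells, with 28 of 48 above, against 17 of 30. In control cells it was −0.02, with 18 of 48 above, against 21 of 28.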

How the data were processed

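ATAC-seq libraries of untreated primary mouse cells were compared, 1 per genotype and cell type. Per the submitters' processing notes the authors used Trimmomatic, BWA and MACS2 with the build mm10. No versions, settings, treatment of duplicates or Tn5 shift were given there. The authors deposited 1 narrow peak list per sample. The deposited score equals 10 times the −log10 q, within 1 unit, in 100% of peaks. The deposited fold is the ratio of summit pileup to local background, and the deposited −log10 p and −log10 q belong to the same summit. The deposited summit offset was used only to locate summits.

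Whole fragment numbers at summits were recovered from fold and −log10 p within a tolerance of 0.05, in 100% of peaks. Regions on chromosomes 1 to 19 and X were kept. Genes came from RefSeq (GRCm38.p6), whose promoter table gives a strand for 26 of the 34 genes, and all 34 symbols matched. Regions overlapping by 1 bp were joined. The fold ratio of a gene was taken where its strongest gene-end regions overlap in both lists, with an exact conditional (Clopper-Pearson) counting interval from the fragments. Shares have Wilson 95% intervals. PCR duplicates may be counted, so intervals cover counting error only. Python 3.11.15, pandas 2.3.3, scipy 1.17.1 and statsmodels 0.14.6 were used, and the steps were tested on simulated data. Genes named with full values were those with unequal calls, the 3 highest and 3 lowest ratios per comparison, the 5 with most regions, the strongest unshared region per list, and the main regulators and rate-limiting steps. The members, the wider list and the markers were chosen with earlier results of these data known.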

Additional observations from a re-analysis of the deposited data

How the results depend on the processing

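Under 2 kb gene ends, gene bodies alone, 50 kb flanks, an overlap of 50% of the narrower region and a minimum width, the counts and shares stayed within 1.5 times or within their counting intervals. With regions under a −log10 q of 5 left out, Scd1-deficient naive CD4 alone had 1 gene-end call (Cpt1c), both DN3 libraries alone had 2 (Pparg and Lpl), and 1.45% of Scd1-deficient DN3 regions lacked a control counterpart. With lists of the same number of strongest peaks, Scd1-deficient naive CD4 alone had 1 gene-end call (Cpt1c). Both DN3 libraries alone again had 1, but it was Pparg in place of Lpl. Genotype-only regions were then 5.26% in Scd1-deficient and 7.37% in control naive CD4 cells, the order of the 2 turned round. Between cell types the shares were 21.1% of naive CD4 and 21.1% of DN3 regions in Scd1-deficient cells, and 17.9% and 22% in control cells. Divided by the all-gene median, the members' median log2 ratio was −0.0127 for the genotypes in naive CD4 cells and 0.0126 for naive CD4 over DN3 in Scd1-deficient cells. From −log10 q, which moves with depth, it was −0.29 for the genotypes in naive CD4 cells, and 0.23 in Scd1-deficient and 0.66 in control cells for naive CD4 over DN3. From fragments over the lowest background, chosen after seeing the data, it was 0.13 for the genotypes in DN3 cells, and 0.42 in Scd1-deficient and 0.49 in control cells for naive CD4 over DN3. The cause of these shifts was not tested. Single-gene ratios moved past their counting intervals in 46 of 83 cases with −log10 q, in 32 of 83 with the lowest background, and in 0 with the all-gene median.

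No paired analysis was possible because each group holds 1 library, and for the same reason no replicate could be left out. Low fragment counts limit what can be read at thin summits, such as those of Lpl in DN3 cells and of Cpt1b and Pparg in naive CD4 cells. Starts and ends are not told apart for the 8 genes without a strand, and regions near other genes' ends (22 of 172) may belong to those.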
